A study of Homo sapiens with 33 samples.

Results

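Genes that brake the cell cycle, together with their neighbours at chromosome band 9p21, were followed in RNA of K562 cells. The 9 genes were chosen by name, and each was found once among the 58293 entries of the deposited expression table. Of these genes, 4 lie at 9p21 (CDKN2A, CDKN2B, CDKN2B-AS1 and MTAP), and 5 lie on other chromosomes (CDKN1A, CDKN1B, MDM2, RB1 and E2F1). K562 is an erythroleukemia line that carries BCR-ABL1. It is known to have lost CDKN2A by deletion of 9p21. The study's 33 samples hold EZH2-bound RNA and RNA fractions of wild type K562 cells, and chromatin of cells with LEVER, a noncoding RNA, knocked out or knocked down beside cells with a non-targeting guide. The FPKM come from 1 library of wild type cells, described as RIP-seq input and as total RNA, so no replicate error can be given and no test between conditions was possible. The RIP lysate was made from sonicated nuclei of fixed cells according to the methods, which do not describe the input separately. Whether the FPKM are of nuclear or of whole-cell RNA is therefore not known from the sources used here. A further 4 libraries of wild type cells, with 1 library each of cytoplasmic, nuclear, nuclear polyA+ and nuclear polyA− RNA, were counted on 900 EZH2-bound fragments only.

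Cells pass from G1 into S phase when cyclin D with CDK4 or CDK6, and then cyclin E with CDK2, phosphorylate RB1 and release the E2F factors that drive replication genes. INK4 proteins (CDKN2A, CDKN2B, CDKN2C and CDKN2D) block CDK4 and CDK6, whereas CIP/KIP proteins (CDKN1A, CDKN1B and CDKN1C) block CDK2 complexes. CDKN2A also encodes ARF, which restrains MDM2, a ubiquitin ligase. CDKN2B-AS1, also called ANRIL, is an lncRNA antisense to CDKN2B that has been described as a partner of Polycomb complexes. MTAP, which lies beside CDKN2A and is often lost with it, starts the salvage of methionine from methylthioadenosine.

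RNA of the 9p21 genes was at or near 0. CDKN2A (chromosome 9 from 21967753 to 21995301 on GRCh38, minus strand), CDKN2B (22002903 to 22009363, minus strand) and MTAP (21802543 to 21937651, plus strand) were each listed at an FPKM of 0, with both bounds at 0. FPKM counts sequenced fragments relative to transcript length and to library size, so levels can be compared between genes. CDKN2B-AS1 (21994778 to 22121097, plus strand) had an FPKM of 0.0236, with a lower bound of 0 and an upper bound of 0.554. Thus none of the 4 genes reached an FPKM of 1, and none had a lower bound above 0. Across the table, 21.8% of all entries and 49.2% of the protein-coding entries had an FPKM of at least 1. A lower bound above 0 was found for 26.5% of all entries and 55.0% of the protein-coding entries.

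An entry at 0 was less common among protein-coding genes than in the table as a whole, with 11.8% of protein-coding entries and 41.8% of all entries listed at 0. Every entry carried the status OK, and none of the 11 genes listed for methionine salvage and PRMT5 or of the 24 E2F target genes was at 0. The depth behind such a value was read from the bounds themselves. For genes with 1 transcript of 1 exon, the upper bound lay 2 counting errors above the FPKM of a whole number of fragments. This held within 0.02 fragments for 81.2% of the 7401 such genes with up to 50 fragments. On that scale, 3 fragments would have given MTAP an FPKM of 0.0305 on its canonical transcript of 6032 bp. The corresponding values were 0.0491 for CDKN2B (3853 bp) and 0.226 for CDKN2A (978 bp), and they cover counting error only. The FPKM of CDKN2B-AS1 was below the 0.0462 that 1 fragment would give on its canonical transcript of 1439 bp. CDKN2B-AS1 runs antisense over CDKN2B and starts inside the span of CDKN2A, and whether strand was used in the counting is not given in the sources used here.

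Simulated reads of these genes could be aligned. Reads of 100 bp were taken from their exons and mapped to GRCh38 with minimap2 at a mapping quality of at least 20. The authors used another aligner, whose quality scale differs. All 29 reads of CDKN2A and all 147 of CDKN2B returned to their origin, as did 211 of 214 from MTAP (98.6%) and 42 of 43 from CDKN2B-AS1 (97.7%). The other 5 genes were alike, with 609 of 614 reads (99.2%).

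The 5 genes outside 9p21 were spread over a wide range, from MDM2 down to CDKN1A. MDM2 (chromosome 12 from 68808176 to 68850686) had an FPKM of 41.9 (bounds 36.8 to 47.1), above 96.5% of the protein-coding entries. RB1, the pocket protein that holds E2F (chromosome 13 from 48303751 to 48481986), had an FPKM of 6.02 (4.62 to 7.41). CDKN1B, which encodes p27 (chromosome 12 from 12715058 to 12722371), had an FPKM of 4.32 (3.34 to 5.30). The bounds of RB1 and CDKN1B overlapped, so their order was not resolved. MDM2 was above both, at 6.97 times the FPKM of RB1.

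E2F1, the activator that RB1 restrains (chromosome 20 from 33675683 to 33686404), had an FPKM of 1.36 (0.986 to 1.74). CDKN1A, which encodes p21 (chromosome 6 from 36676460 to 36687339), had an FPKM of 0.394 (0 to 0.873). It was the only gene of this group with a lower bound of 0, and its upper bound lay below the lower bound of E2F1. By the relation above, the bounds of CDKN1A match 2.72 fragments, against 52.8 for E2F1, 74.3 for RB1, 78.3 for CDKN1B and 266 for MDM2. For genes with several transcripts the bounds also hold the error of assigning fragments, so these are effective numbers and not counts of fragments. On its canonical transcript of 2117 bp, 3 fragments would have given CDKN1A an FPKM of 0.0894, below its 0.394. CDKN1A was above 43.3% of the protein-coding entries, E2F1 above 53.3%, CDKN1B above 66.7% and RB1 above 71.9%.

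Set side by side, 4 of the 5 other genes and 0 of the 4 genes at 9p21 had an FPKM of at least 1. This level was reached by 21.8% of all entries and 49.2% of the protein-coding entries. The median of log2(FPKM + 1) was 2.41 outside 9p21 and 0 at 9p21, a difference of 2.41. The bounds of CDKN1B, which holds the middle place, put this difference between 2.12 and 2.65. The upper bound of CDKN2B-AS1 (0.554) was below the lower bounds of MDM2, RB1, CDKN1B and E2F1, and it overlapped the bounds of CDKN1A. Genes are not replicates, and no p-value is given. In bulk RNA, a low level in every cell cannot be told apart from expression in few cells.

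The 9p21 genes were part of a longer stretch of chromosome 9 with FPKM at or near 0. Around CDKN2A, 40 consecutive entries had an FPKM under 1, over 5.00 Mb from 21802543 to 26805862. Of these, 39 were listed at 0, including all 7 protein-coding genes, and CDKN2B-AS1 was the highest. The run was bounded on the far side by CAAP1, a gene with roles in apoptosis (26840685 to 26892804), with an FPKM of 3.91 (2.94 to 4.87). On the near side it was bounded by RN7SL151P, a pseudogene of the 7SL RNA (21699314 to 21699596), with an FPKM of 4.53 (1.80 to 7.26). Without RN7SL151P, the run held 98 entries over 7.42 Mb and reached back to RPS6, which encodes a ribosomal protein (FPKM 387, 369 to 405). That setting was chosen after the data were seen.

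Entries at exactly 0 filled the space between FOCAD and CAAP1, an interval also chosen after its values were seen. Over 5.84 Mb, 77 of 79 entries (97.5%) were listed at 0, and the exceptions were RN7SL151P and CDKN2B-AS1. All 25 protein-coding genes of the interval were at 0. They comprised CDKN2A, CDKN2B and MTAP, 16 interferon genes, HACD4, KLHL9, DMRTA1, ELAVL2, IZUMO3 and TUSC1. In the 3 Mb before FOCAD, 1 of 11 protein-coding genes (9.09%) was at 0 and 5 had an FPKM of at least 1. In the 3 Mb from CAAP1 on, 0 of 10 were at 0 and 5 had an FPKM of at least 1. Over the whole of chromosome 9, 119 of 766 protein-coding genes (15.5%) were at 0.

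Interferon genes such as IFNB1 and IFNA2 are silent in most cells until a virus is sensed. The genes at 0 also include KLHL9, an adaptor of a ubiquitin ligase used in mitosis, and HACD4, an enzyme of fatty acid elongation. Simulated reads returned to their origin for 100% of KLHL9 and 99.4% of HACD4, whereas 86.7% of the reads of the 16 interferon genes did. Some interferon genes are near copies of each other, and only 25.0% of the reads of IFNA13 and 40.6% of those of IFNA1 returned, so the zeros of these genes are uncertain.

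When protein-coding genes alone were put in order along chromosomes 1 to 22 and X, the run from HACD4 to TUSC1 was the longest of 1542 runs at 0, both by number (25 genes) and by span (4.68 Mb). Of these 25 genes, 16 were the interferon genes, and the rank by number without them was not computed. Next by number came 23 genes over 0.604 Mb on chromosome 4 (HMX1 to DEFB131) and 22 genes over 0.314 Mb on chromosome 17 (KRTAP4-3 to KRT35). The genes at these ends were named after their values were seen. With all entries, the 9p21 zeros were split by RN7SL151P and CDKN2B-AS1, and the longer parts, with 40 and 31 entries, ranked 9 and 10 of 11909 runs. The part from MTAP to CDKN2A held 8 entries and ranked 183, and the part with 40 entries held none of the 9 genes.

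The flanking genes marked where RNA was found again. Before the interval, HAUS6, a subunit of the augmin complex of the spindle, had an FPKM of 6.47 (5.85 to 7.09). PLIN2, which coats lipid droplets, had one of 6.51 (5.34 to 7.68), and RRAGA, a GTPase of amino acid sensing, had one of 3.29 (2.54 to 4.03). Nearer to CDKN2A, values were low. MLLT3, a reader of acylated histones, had an FPKM of 0.0269 (0 to 0.554), and FOCAD, which encodes focadhesin, had one of 0.605 (0 to 1.70). Behind the interval, PLAA, a ubiquitin-binding protein, had an FPKM of 6.95 (5.49 to 8.41) and IFT74, of intraflagellar transport, had one of 2.94 (2.00 to 3.88). An RNA listed at 0 does not tell a lost gene from a silent one, and genomic DNA was not analysed here.

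The remaining CDK inhibitors were present. CDKN3, a phosphatase that acts on CDK2, had the highest FPKM with 16.3 (13.4 to 19.2), followed by CDKN2C, the INK4 protein p18, with 8.76 (7.50 to 10.0). CDKN1C, or p57, had an FPKM of 1.06 (0.611 to 1.50), and CDKN2D, or p19, had one of 0.826 (0.394 to 1.26). The FPKM of CDKN2D lay below the median of all protein-coding entries (0.902), which its bounds include. All 4 lower bounds were above 0, which held for 55.0% of protein-coding entries. The bounds of CDKN2C lay above those of CDKN1B, whereas CDKN2C and RB1 were separated only narrowly (7.50 against 7.41). Both relatives of RB1 were above it, with an FPKM of 15.0 for RBL1 (12.8 to 17.2) and 10.4 for RBL2 (8.85 to 12.0).

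The kinases that these brakes act on were all expressed. All 8 listed G1 cyclins and CDKs had an FPKM of at least 1, with a median of 15.7, against 0.902 for all protein-coding entries. CDK4 was the highest with 38.6 (34.5 to 42.6). Among the D cyclins, CCND2 had 24.4 (22.1 to 26.6), CCND3 had 17.6 (15.4 to 19.8) and CCND1 had 1.50 (0.670 to 2.33). CDK6 had 18.1 (16.8 to 19.5) and CDK2 had 13.8 (12.2 to 15.3), and the cyclins E were at 9.21 (CCNE1) and 4.69 (CCNE2).

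E2F1 was lower than every other listed member of its family. All 9 further E2F and DP genes had an FPKM of at least 1, from 3.13 for E2F5 (2.05 to 4.22) and 4.34 for E2F6 to 22.0 for TFDP1 and 28.6 for TFDP2 (24.6 to 32.6). The lower bound of E2F5 was above the upper bound of E2F1 (1.74). Replication genes that E2F factors are known to activate stood at high levels. All 24 listed E2F target genes had an FPKM of at least 1, with a median of 24.2. Of all protein-coding entries, 49.2% had an FPKM of at least 1, and their median was 0.902. The gene lists were chosen with earlier results of these data known. The highest were MCM4 with 94.9 (86.5 to 103) and MCM7 with 73.7 (69.9 to 77.4), which are subunits of the replicative helicase. The lowest were CDT1, a licensing factor, with 7.36 and GINS2 with 6.28 (5.09 to 7.48). CDK1 had 36.6, TYMS had 62.4 and PCNA had 39.0.

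Promoter sequence of the 9 genes was searched for the 8-letter E2F motif in its 4 forms, TTTGGCGC, TTTCCCGC, TTTGCCGC and TTTCGCGC, on both strands. RefSeq windows of 300 bases on GRCh38.p14, with 250 bases before and 50 after a listed start, were found for all 9 genes, and for RB1 only at a start late in the gene. Of all 35116 windows, 3.31% held a form of the motif. It was found at E2F1, at 2 of the 4 starts of MDM2 and at CDKN2B-AS1. For the E2F target genes, 21 of 24 had a window. Of these 21 genes 13 had the motif, against 1090 of all 27305 genes with a window. By window, 15 of 31 (48.4%) held it. Windows of the target genes had a median GC content of 67.7% and a median of 31 CpG. For all windows these medians were 58.7% and 14, and every form of the motif holds a CG. The following 30-base stretches, with the motif in capitals, are shown because they hold every match of the motif among the 9 genes.
E2F1, chr20:33686391-33686420, minus strand: tcGCGGCAAAaaggaTTTGGCGCgtaaaag
MDM2, chr12:68807938-68807967, plus strand: caGCGCCAAAccttgctggctccgcgccag
CDKN2B-AS1, chr9:21994669-21994698, plus strand: acTTTCCCGCcctgtgtgcgcccccacccc
In E2F1 the stretch carries the motif once on each strand, and in MDM2 it lies on the reverse strand. Levels of these 3 genes ran from 41.9 for MDM2 through 1.36 for E2F1 to 0.0236 for CDKN2B-AS1. Whether a match goes with level was not tested, and CDKN2B-AS1 lies at 9p21, which is known to be deleted in K562. CDKN2A, CDKN2B and MTAP had no match in their windows. GC content was 63.3 and 69.0% at the starts of CDKN2A, 67.3% at CDKN2B, 74.0% at CDKN2B-AS1 and 53% at MTAP, against a median of 58.7% for all windows.

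With MTAP at 0, the genes listed for methionine salvage, polyamine synthesis and PRMT5 were all expressed. All 11 had an FPKM of at least 1, with a median of 14.1. The genes for later steps of salvage are MRI1, APIP, ENOPH1 and ADI1. MRI1, which acts right after MTAP, had the lowest FPKM of 4.72 (3.80 to 5.63), followed by ADI1 with 6.99 (6.07 to 7.90). APIP had 13.4 and ENOPH1 had 14.1. MAT2A, which makes S-adenosylmethionine, had the highest FPKM with 81.4 (76.9 to 85.8). PRMT5, the arginine methyltransferase that methylthioadenosine inhibits, had 53.8 (44.9 to 62.7), and its partner WDR77 had 7.80 (6.70 to 8.91).

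None of the 900 EZH2-bound fragments overlapped any of the 9 genes, and none lay between FOCAD and CAAP1. Only fragments in the deposited count tables were searched, so this does not show that EZH2-bound RNA is absent there. The nearest fragment on chromosome 9 after CDKN2A was 5.54 Mb away (27510861 to 27511432), and the nearest before it was 16.9 Mb away (5103872 to 5106509). Of the 102 genes of the cell cycle, salvage and 9p21 lists that are in the table, the 9 genes included, 2 carried fragments, and these were CDK6 and E2F3. Of all entries, 0.582% carried a fragment, and of the protein-coding entries 1.22%. The 3 fragments lay wholly in introns. The E2F3 fragment (chromosome 6 from 20413781 to 20418775) had 22 cytoplasmic, 374 nuclear, 88 polyA+ and 383 polyA− reads. Its nuclear to cytoplasmic ratio was 17.0 (exact 95% interval 11.1 to 27.5), and its polyA− to polyA+ ratio was 4.35 (3.44 to 5.55). Both intervals lay above 1, which also held for 88.2% and 69.0% of all fragments.

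The CDK6 fragments (chromosome 7 from 92654645 to 92656228 and from 92747196 to 92749114) had 1 and 4 cytoplasmic, 11 and 52 nuclear, 10 and 8 polyA+ and 15 and 45 polyA− reads. Nuclear to cytoplasmic ratios were 11.0 (1.60 to 473) and 13.0 (4.78 to 49.5). The polyA− to polyA+ ratio was 5.62 (2.62 to 13.8) for the second fragment. For the first it was 1.50 (0.630 to 3.73), not distinguishable from 1 at this depth. The intervals cover counting error between 2 libraries only, since library totals were not used. The ratios were also scaled so that the median ratio was 1 over the fragments with reads in both libraries of the ratio. On that scale the nuclear to cytoplasmic ratio was 0.773 for E2F3 (0.503 to 1.25). The ratios for CDK6 were 0.500 (0.0727 to 21.5) and 0.591 (0.217 to 2.25). These intervals include 1, as do those of the polyA− to polyA+ ratios scaled in the same way. Fragments without reads in 1 of the libraries did not enter the median, and a median over all fragments was not computed.

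The label of the line was checked against marker genes. All 10 erythroid markers had an FPKM of at least 1, including GATA1 with 15.3 and KLF1 with 14.7, and the range was from 4.73 for HBA1 to 218 for HBG2. The 4 lymphoid markers lay between 0 and 0.389 with a sum of 0.558. Of the 3 monocyte markers, CD14 was at 0, CSF1R had 0.127 and LYZ had 5.76. Of the 5 fibroblast and epithelial markers, COL1A2 had 1.25 and EPCAM had 27.9, and COL1A1, DCN and KRT5 were at most at 0.677.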

How the data were processed

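Input RNA of wild type K562 cells was sequenced as 1 library. Per the methods, the authors used TrimGalore to trim reads and STAR to align them (GRCh38, GENCODE 26). Duplicates and alignments below a mapping quality of 20 were discarded. The deposited values are FPKM per gene with confidence bounds, which the authors computed with cuffdiff. For 4 RNA fractions, with 1 library each, the authors deposited read counts on 900 EZH2-bound fragments, made with featureCounts and not normalized. These sum to 7929 reads in cytoplasmic, 105661 in nuclear, 57985 in polyA+ and 106051 in polyA− RNA, and they are not library totals. Versions of these tools are not given in the sources used here.

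FPKM were used as deposited, with 1 as threshold and as pseudocount. Starts in the table count from 0 and were raised by 1. Gene classes came from GENCODE 44, which held 98.7% of the identifiers. EZH2-bound fragments were assigned to genes that covered 50% or more of their length. Ratios carry exact Clopper-Pearson intervals, and the script for these intervals and for the number of fragments was tested on simulated data. Reads of 100 bp taken every 25 bp from canonical exons were mapped with minimap2 2.31. Python 3.11.15, numpy 2.4.6, pandas 2.3.3, scipy 1.17.1 and matplotlib 3.10.9 were used. The members and the gene lists were chosen with earlier results of these data known. Named were all members, genes of the lists including the extremes of each, and the bounds of the run around CDKN2A. Other thresholds, pseudocounts, run rules, overlaps and scalings were tried. The values of the other samples were not analysed here. Some genes of related pathways are not reported here.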

Additional observations from a re-analysis of the deposited data

How the results depend on the processing

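The 9p21 genes stayed at 0 of 4 with a threshold of 0.1 or 5 and with a lower bound above 0 as the criterion. Of the 5 other genes, 2 passed at a threshold of 5. The median difference of 2.41 became 5.47 with a pseudocount of 0.1 and 8.76 with 0.01, since the 9p21 median is 0. Leaving out CDKN2B-AS1, or E2F1 and MDM2, cannot move either median. The run of 40 entries became 102 entries (7.51 Mb) at a threshold of 5 or when 2 consecutive entries had to end it, and 98 without RN7SL151P. At a threshold of 5, 5 of 19 other 9p21 neighbours, 5 of 9 E2F and DP genes and 1 of 5 fibroblast and epithelial markers passed, against 11.8% of all entries and 31.0% of protein-coding ones. The background at 1 was 21.8% of all entries and 49.2% of protein-coding ones. The median ratio was also set to 1 over the fragments with reads in both libraries of the ratio. The nuclear to cytoplasmic ratios then became 0.773 for E2F3 and 0.500 and 0.591 for CDK6, with intervals that include 1. The polyA− to polyA+ ratios became 1.23 for E2F3 (0.973 to 1.57) and 0.424 (0.178 to 1.06) and 1.59 (0.742 to 3.90) for CDK6. These intervals include 1 as well. This scaling moves all fragments alike by construction. No paired analysis was possible because the groups used here have 1 library each.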

Other observations

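RN7SL151P was the 1 entry between FOCAD and CAAP1 with a lower bound above 0 (FPKM 4.53, 1.80 to 7.26). All 8 simulated reads of this pseudogene returned to their origin with a mapping quality of at least 20. Reads of the 7SL RNA and of its other copies were not simulated. Whether such reads could align to RN7SL151P was therefore not tested. EPCAM, an epithelial adhesion gene that was listed as a marker of other cells, had an FPKM of 27.9 (25.0 to 30.7), whereas KRT5 had 0.118 (0 to 0.735).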
